A study of Homo sapiens with 12 samples.

Results

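The 49 interferon-stimulated genes described here are a list of gene symbols, and all 49 stood among the 26485 genes measured in HT-29 cells, a human cell line from a colon adenocarcinoma. Levels are normalized reads, that is, the reads of a gene in a library divided by the size factor of that library. A mean of at least 10 normalized reads in at least 1 of the 4 groups was reached by 39 members, and all 39 were tested. Just inside this limit stood OAS2, whose highest group mean was 18.4 with TSZ+Nec-1s, and just outside stood SAMD9L, whose highest group mean was 9.91 with TSZ+Nec-1s.

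Interferons are secreted proteins that warn cells of infection. Type I and type III interferons signal through JAK1 and TYK2 to a transcription factor complex that binds interferon-stimulated response elements (ISREs) in promoters, while interferon-γ acts through GAS elements. The induced proteins sense viral RNA, degrade it, block translation, modify other proteins or hold back virus particles at membranes. Many of these promoters are also read by IRF1, IRF3 or NF-κB, so a gene of this class can rise without secreted interferon, and gut epithelium is known for its response to type III interferon.

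Cells were treated for 8 h with the vehicle DMSO, with TNFα at 10 ng/ml, with TSZ, or with TSZ+Nec-1s, and 3 libraries of polyadenylated RNA were made per group. TSZ is the same TNFα dose with SM-164 at 50 nM, a Smac mimetic directed against IAP proteins, and zVAD at 20 μM, which inhibits caspases; this mixture is used to induce necroptosis. TSZ+Nec-1s adds Nec-1s at 10 μM, an inhibitor of the RIPK1 kinase. All 3 treated groups hold TNFα, and TSZ differs from TNFα by SM-164 and zVAD together, whose parts cannot be told apart. No label says that the 3 libraries per group were grown as separate cultures, so the p-values cover the spread between these libraries alone, and that spread may be technical. In bulk RNA, fewer cells of a kind and less RNA per cell cannot be told apart.

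The deposited group means were resolved into 12 libraries, given the letters a to c in each group, with 8457703 to 12100389 recovered reads each. In DMSO b, TNFα a and TSZ a, the deviation from the group's mean level fell with transcript GC content, at a Spearman's rho down to -0.81, and in the other libraries of those groups rho was 0.22 to 0.78; in TSZ+Nec-1s it was -0.15 to 0.23 (a description across genes, which share their library). The tested members had a median GC content of 46.9%, against 48.5% for all tested genes. Of 9 markers of colon epithelium, 7 stood at 10 or more in every group. KRT8 and KRT18 were not resolved into libraries. The 7 markers without them summed to 17010 to 18746 normalized reads under DMSO, 17695 to 19090.4 under TNFα, 34621 to 35411 under TSZ and 19946 to 20253 under TSZ+Nec-1s. With KRT8 and KRT18 the group means of the 9 summed to 138492 under DMSO, 147836 under TNFα, 208701 under TSZ and 141941 under TSZ+Nec-1s. Among 6 leukocyte markers PTPRC and CD3E were at 0 in all libraries, and the 5 with reads per library summed to 88.7 to 94.5 normalized reads under DMSO, 169 to 207 under TNFα, 96.5 to 154 under TSZ and 213 to 269 under TSZ+Nec-1s. The marker left out of these sums was LYZ, which was not resolved into libraries. With LYZ the group means of the 6 summed to 15013 under DMSO, 15199 under TNFα, 20003 under TSZ and 15558 under TSZ+Nec-1s. Among 6 markers of fibroblasts and endothelium CDH5 was at 0 in all libraries, and the list summed to 51.3 to 194 normalized reads under DMSO, 47.2 to 63.1 under TNFα, 211 to 484 under TSZ and 42.7 to 59.9 under TSZ+Nec-1s. The part of these differences in the results was not tested. Of 6 NF-κB target genes, all 6 were higher than in DMSO in each treated group. Over all tested genes the share was 3.09% under TNFα, 25.8% under TSZ and 7.1% under TSZ+Nec-1s. The 6 were listed with earlier results of these data known, so they are no independent check of TNFα action.

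Most promoters of the class held the letters of an ISRE. A RefSeq promoter window (GRCh38.p14, 250 bases before to 50 after the start site) was matched for 40 of the 49 members. The ISRE core GAAANNGAAA, searched on both strands, stood in 27 of the 40 windows (67.5%), against 3.65% of all 27305 windows and 2.69% of the windows of 9423 tested genes. The GAS motif TTCNNNGAA stood in 8 of 40 (20.0%, against 7.88% of all windows), the κB consensus in 8 (20.0%, against 10.8%) and the AP-1 motif TGANTCA in 6 (15%, against 7.76%). A GAS match overlapped an ISRE core in BST2, IFI27 and IFITM1, and a match is a run of letters, not a site in use; a window without a match lacks only these letters. The 250 bases before the start are shown for the members whose levels the results turn on: IFIH1, DDX58 and PARP14, which were highest under TSZ+Nec-1s, OAS3, which was highest under TNFα and TSZ+Nec-1s, and ISG20 and GBP1, which were highest under TSZ. Sequences read 5′ to 3′ on the strand of the gene, with ISRE cores in capitals, as TTTC runs where the core lies on the other strand, and in DDX58, which has no ISRE core, with its κB match in capitals.

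IFIH1, chr2:162318685-162318934, minus strand: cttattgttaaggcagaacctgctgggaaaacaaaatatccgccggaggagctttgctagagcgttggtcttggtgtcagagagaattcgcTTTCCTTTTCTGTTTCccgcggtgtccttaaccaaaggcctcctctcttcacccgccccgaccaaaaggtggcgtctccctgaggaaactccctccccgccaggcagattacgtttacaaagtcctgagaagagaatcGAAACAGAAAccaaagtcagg

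DDX58, chr9:32526197-32526446, minus strand: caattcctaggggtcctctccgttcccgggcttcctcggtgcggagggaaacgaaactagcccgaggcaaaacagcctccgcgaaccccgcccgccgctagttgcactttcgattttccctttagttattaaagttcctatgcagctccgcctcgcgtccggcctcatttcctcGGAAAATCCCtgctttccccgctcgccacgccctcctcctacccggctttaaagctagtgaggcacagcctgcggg

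PARP14, chr3:122680589-122680838, plus strand: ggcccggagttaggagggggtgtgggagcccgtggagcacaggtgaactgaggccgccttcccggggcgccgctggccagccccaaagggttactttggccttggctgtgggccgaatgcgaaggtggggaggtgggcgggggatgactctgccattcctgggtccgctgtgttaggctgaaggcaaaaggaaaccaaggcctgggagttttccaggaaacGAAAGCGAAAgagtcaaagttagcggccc

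OAS3, chr12:112938224-112938473, plus strand: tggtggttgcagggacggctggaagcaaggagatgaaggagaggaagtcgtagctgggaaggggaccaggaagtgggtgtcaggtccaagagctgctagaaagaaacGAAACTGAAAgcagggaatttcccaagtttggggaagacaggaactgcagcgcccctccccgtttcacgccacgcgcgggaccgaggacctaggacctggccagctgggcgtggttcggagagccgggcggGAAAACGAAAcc

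ISG20, chr15:88638766-88639015, plus strand: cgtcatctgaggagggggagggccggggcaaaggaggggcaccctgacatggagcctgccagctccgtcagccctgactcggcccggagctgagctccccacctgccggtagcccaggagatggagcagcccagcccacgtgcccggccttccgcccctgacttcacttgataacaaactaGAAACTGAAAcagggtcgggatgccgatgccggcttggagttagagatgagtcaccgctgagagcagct

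GBP1, chr1:89065209-89065458, minus strand: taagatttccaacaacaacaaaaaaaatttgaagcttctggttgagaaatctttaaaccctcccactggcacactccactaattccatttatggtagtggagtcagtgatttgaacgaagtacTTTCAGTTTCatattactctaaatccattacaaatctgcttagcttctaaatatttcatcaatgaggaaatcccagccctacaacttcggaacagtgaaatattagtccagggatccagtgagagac

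IFIH1 held 3 ISRE cores, a pair that overlaps at positions -159 and -153 and a single core at -21, counted back from the start site. OAS3 held cores at -143 and -12, PARP14 at -29, ISG20 at -69 and GBP1 at -127. Of the 32 tested members with a window, 23 held an ISRE core. Among members lower under TSZ than under TSZ+Nec-1s 9 of 13 windows held one, and among members higher under TSZ 3 of 6, and no test was made of these numbers. An AP-1 motif stood in ISG20 at -22, and a GAS match in PARP14 at -40, and κB matches in DDX58 and IFIH1 at -76 and in OAS3 at -130 and -129. The GENCODE annotation holds longer models of DDX58, OAS3, ISG20 and GBP1 that start elsewhere.

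**Figure D1:**
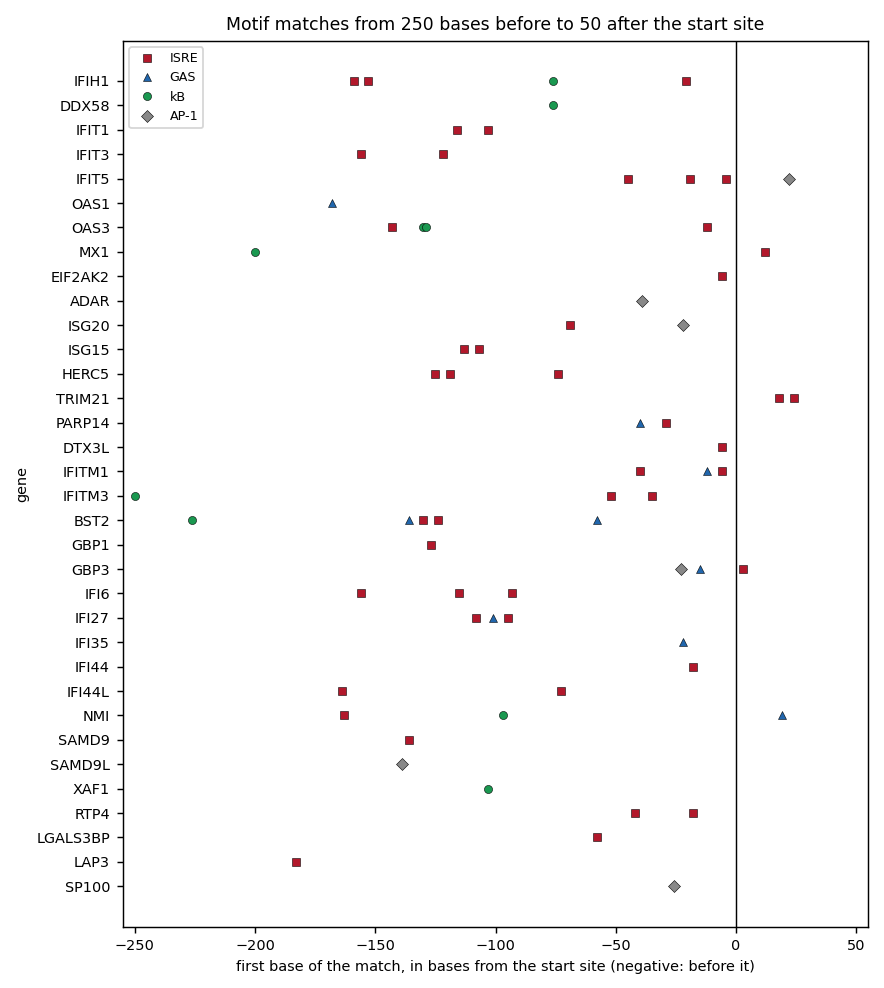
First base of each match to the ISRE core, the GAS motif, the κB consensus and the AP-1 motif, in bases from the RefSeq start site (vertical line at 0), for the members with a match. Squares mark ISRE cores, which stood in 27 of 40 member windows, and 42 of the 46 cores began before the start site.

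With TNFα alone few members passed the threshold. Compared with DMSO, 5 of 39 were higher at an adjusted p under 0.05 (limma, Benjamini-Hochberg over all 11697 genes tested), which is 12.8% of the members against 3.09% of all tested genes. The 5 were GBP1, OAS3, IFIH1, PARP14 and SP100, and by limma 0 were lower, against 1.09% of all tested genes. At an unadjusted p under 0.05, 20 were higher and 0 lower. All tested genes were not counted at an unadjusted p, here or below, so these numbers have no share beside them. The median log2 fold change of the 39 was 0.37, and 32 of 39 lay above 0, beside 5817 of all 11697 genes tested. The calls of IFIH1 and SP100 were not kept in every fit without 1 library. IFIH1 lost its call without DMSO a or c, any single TNFα library or any single TSZ+Nec-1s library (adjusted p = 0.054 to 0.18). SP100 lost its call without DMSO a or TNFα b or c (adjusted p = 0.058 to 0.087). Their log2 fold changes ranged from 0.93 to 1.3 and from 0.41 to 0.5 over the fits without 1 library. Once the GC trend was removed library by library, 17 members were higher and 1 lower, beside 6.64% and 6.45% of all tested genes.

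TSZ raised more members, and so it did with genes at large. Compared with DMSO, 21 of 39 (53.8%) were higher, against 25.8% of all tested genes, and PARP9 alone (2.56%) was lower, against 24.2%. Their median log2 fold change was 0.62, beside -0.02 over all tested genes. These numbers depended on the scaling. Scaling by estimated total reads, an alternative added once the data had been seen, moved the median of all genes to -0.43, and 13 members were then higher and 7 lower, beside 14.0% and 48.6% of all tested genes. Scaling by recovered reads moved it to -0.23, with 19 higher and 5 lower, beside 19.04% and 35.7% of all tested genes. Scaling by the upper quartile moved it to -0.14, with 19 higher and 2 lower, beside 21.2% and 30.02%.

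TSZ+Nec-1s, in which the RIPK1 kinase was inhibited, raised 24 members, while fewer genes at large were called with it than under TSZ. These 24 of 39 (61.5%) were higher than in DMSO, against 7.1% of all tested genes. Without DMSO a there were 18, beside 20 under TSZ, and 546 and 2680 of all 11697 genes tested. Without DMSO b there were 25, beside 2216 of all genes tested. Removing the GC trend library by library gave 26 (12.8% of all tested genes). Removing it within groups, an alternative added once the data had been seen, gave 27 (18.3% of all tested genes). By limma 0 members were lower, against 5.76%. At an unadjusted p under 0.05, at which all tested genes were not counted, there were 25 higher and 1 lower. Their median log2 fold change was 0.78, beside 0.01 over all tested genes. Above 0 lay 35 of 39, beside 6031 of all 11697 genes tested. The 3 comparisons with DMSO share the DMSO libraries, so their counts are given side by side and are not independent.

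The treated groups also differed from each other. Between TSZ and TNFα, 13 of 39 (33.3%) were higher under TSZ, against 22.6% of all tested genes, and 5 (12.8%) were lower, against 21.7%. Scaling by estimated total reads turned this split to 7 higher and 11 lower, beside 12.6% and 42.5% of all tested genes, and scaling by recovered reads to 9 and 9, beside 15.1% and 35.3%. Between TSZ+Nec-1s and TNFα, 18 members were higher and 0 lower at an unadjusted p under 0.05, at which all tested genes were not counted. At the adjusted threshold, 5 of 39 (12.8%) were higher under TSZ+Nec-1s, against 1.09%, and by limma 0 were lower, against 0.256%. The count of members higher was 13 without DMSO b, beside 665 of all 11697 genes tested, and 10 without TSZ a, beside 182. It was 3 without TNFα b, TNFα c or any TSZ+Nec-1s library, beside 47 to 60. Once the GC trend was removed library by library it was 12 (3.28% of all tested genes). When the 2 groups were fitted alone it was 18 (17.0% of all tested genes). Between TSZ and TSZ+Nec-1s, 8 of 39 (20.5%) were higher under TSZ, against 22.5%, and 15 (38.5%) were lower, against 19.8%. Under scaling by estimated total reads that split was 4 higher and 19 lower, beside 11.6% and 42.2% of all tested genes. Without TSZ b 9 were lower, beside 1786 of all 11697 genes tested.

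Sorted by group mean, 19 of 39 members (48.7%) had their highest level with TSZ+Nec-1s, against 17.3% of the 12186 genes that reached 10 in some group. The highest level was with TSZ for 16 members (41.0%, against 39.1% of genes). It was with TNFα for OAS3 and LAP3 (5.13%, against 17.5%) and with DMSO for USP18 and LGALS3BP (5.13%, against 26.0%). IFIH1, DDX58 and PARP14 were higher under TSZ+Nec-1s than under each of the other 3 groups, which was so for 22 of 11697 genes (0.188%). OAS1, OASL, ISG20, TRIM25, GBP1, GBP2 and SP100 were higher under TSZ than under each of the others, as were 17.0% of tested genes. IFIT1, USP18, IFITM2, LGALS3BP, LAP3 and SP110 were called in none of the 6 comparisons.

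**Figure D2:**
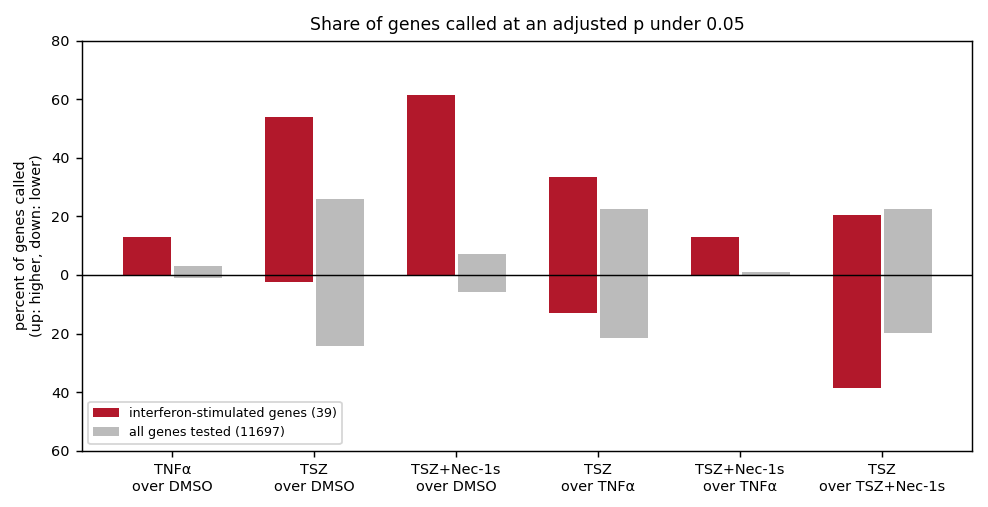
Percent of the 39 tested interferon-stimulated genes (red) and of all 11697 tested genes (grey) called higher (bars up) or lower (bars down) in each of 6 comparisons at an adjusted p under 0.05 from limma. In TSZ+Nec-1s over DMSO, 61.5% of members were higher against 7.1% of all genes. With the GC trend within groups removed, 27 of 39 members were higher there, against 18.3% of all genes. Scaling by estimated total reads changes the splits of the 3 comparisons that hold TSZ alone.

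**Figure D3:**
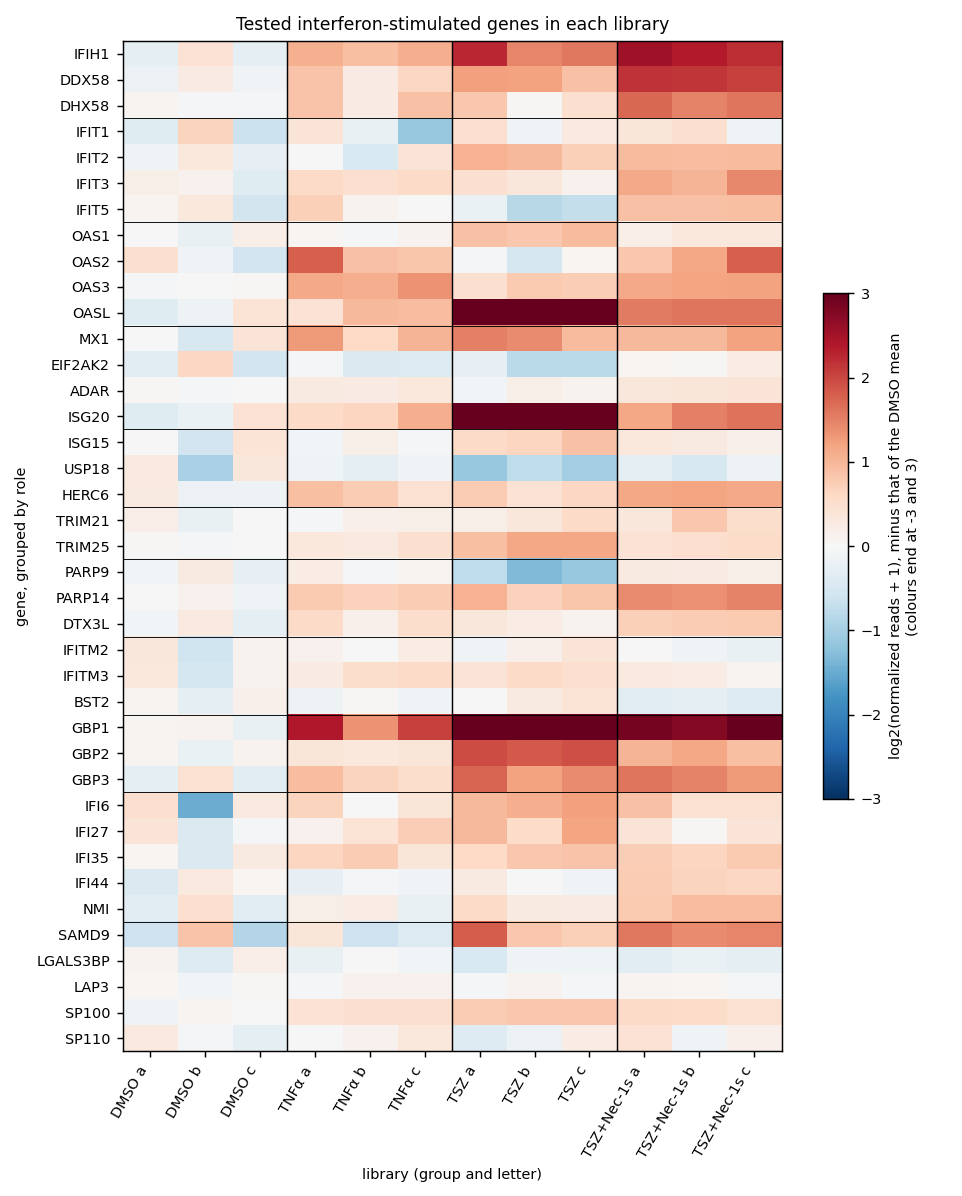
Level of each tested member in each of the 12 libraries as log2(normalized reads + 1) minus that of the DMSO mean, red higher and blue lower, with colours ending at -3 and 3 and horizontal lines between roles. ISG20, OASL and GBP1 reach the end of the scale with TSZ, and IFIH1 and DDX58 are darkest with TSZ+Nec-1s.

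IFIH1, DDX58 and DHX58 encode the cytosolic RNA helicases MDA5, RIG-I and LGP2, of which the first pair detect viral RNA and signal through MAVS while LGP2 modulates them. All 3 were higher under TSZ+Nec-1s than under DMSO, and all 3 were lower under TSZ than under TSZ+Nec-1s. IFIH1 (GENCODE annotation of hg38, chromosome 2, 162267074 to 162318684, minus strand) was at 45.9, 76.7 and 47.0 under DMSO, 119, 106 and 122 under TNFα, 273, 158 and 173 under TSZ and 334, 297 and 267 under TSZ+Nec-1s, in normalized reads of libraries a, b and c in turn. That order is kept for all members, and log2 fold changes are given with their standard error (SE). Every treated library stood above every DMSO library, and TSZ a reached into the range of TSZ+Nec-1s. Its log2 fold change was 2.44 (SE 0.24, adjusted p = 1.8e-05) for TSZ+Nec-1s over DMSO, 1.83 (SE 0.25, adjusted p = 6e-05) for TSZ over DMSO, 1.07 (SE 0.26, adjusted p = 0.037) for TNFα over DMSO, 1.37 (SE 0.21, adjusted p = 0.0046) for TSZ+Nec-1s over TNFα and -0.61 (SE 0.19, adjusted p = 0.023) for TSZ over TSZ+Nec-1s. The last call was lost without TSZ b or c or TSZ+Nec-1s a or b (adjusted p = 0.055 to 0.12). DDX58 (chromosome 9, 32455302 to 32526208, minus strand, named RIGI in the annotation) was at 58.5, 78.8 and 62.0 under DMSO, 121, 78.9 and 102 under TNFα, 156, 155 and 123 under TSZ and 302, 296 and 279 under TSZ+Nec-1s. The groups followed each other in this order without overlap, although TNFα b and DMSO b nearly met. DDX58 had a log2 fold change of 2.15 (SE 0.18, adjusted p = 3.5e-06) for TSZ+Nec-1s over DMSO, 1.13 (SE 0.19, adjusted p = 0.00033) for TSZ over DMSO and -1.02 (SE 0.16, adjusted p = 0.00021) for TSZ over TSZ+Nec-1s; the value for TNFα over DMSO was 0.59 (SE 0.20, adjusted p = 0.14). Over TNFα, TSZ raised IFIH1 by a log2 fold change of 0.76 (SE 0.22, adjusted p = 0.013) and DDX58 by 0.54 (SE 0.18, adjusted p = 0.026). IFIH1 lost this call without TSZ a (adjusted p = 0.051) and DDX58 without TNFα b or c or TSZ a or b (adjusted p = 0.056 to 0.12). Both lost it under scaling by estimated total reads (adjusted p = 0.14 and 0.4) and by recovered reads (adjusted p = 0.076 and 0.2). DDX58 also lost it under scaling by the upper quartile (adjusted p = 0.057). DHX58 (chromosome 17, 42101404 to 42112714, minus strand) was at 19.8, 17.9 and 18.2 under DMSO, 34.6, 22.1 and 35.0 under TNFα, 33.3, 19.2 and 26.2 under TSZ and 63.3, 53.8 and 58.3 under TSZ+Nec-1s. Its TSZ+Nec-1s libraries stood above all others, and TSZ libraries overlapped both DMSO and TNFα. DHX58 had a log2 fold change of 1.62 (SE 0.25, adjusted p = 0.00076) for TSZ+Nec-1s over DMSO and -1.17 (SE 0.24, adjusted p = 0.0018) for TSZ over TSZ+Nec-1s.

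**Figure D4:**
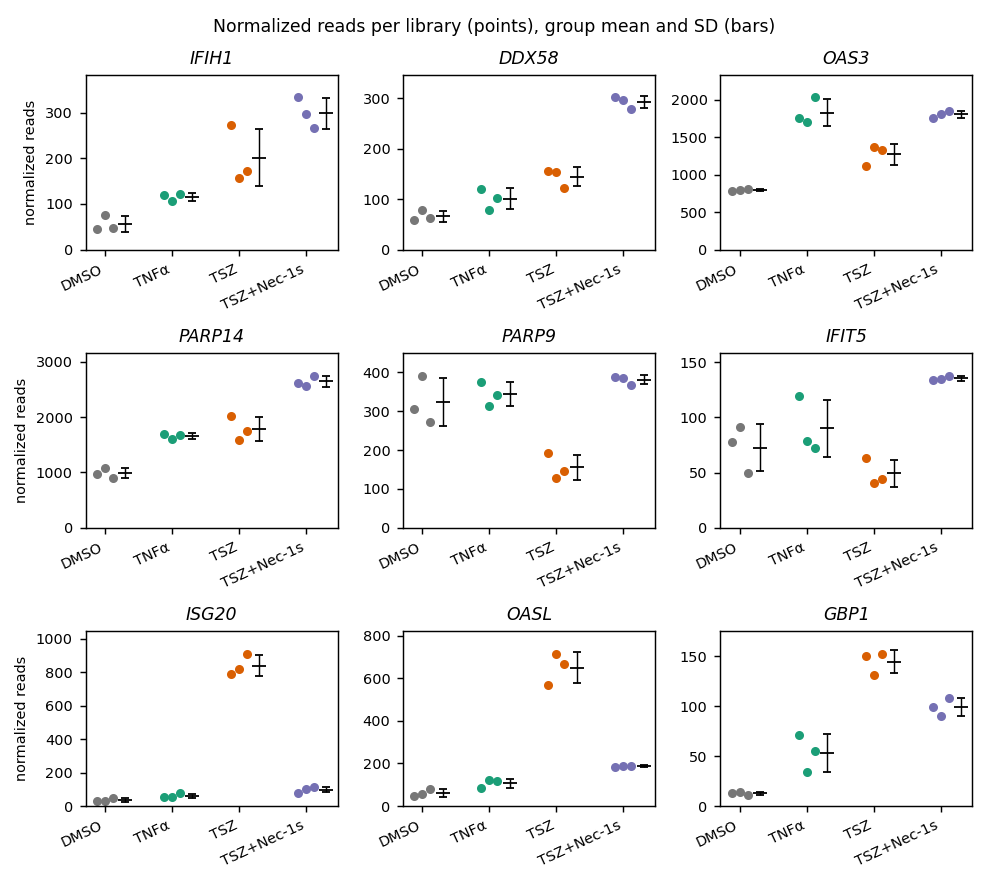
Normalized reads of 9 members in each library (points, 3 per group) with the group mean and SD (bars), on linear axes from 0. IFIH1, DDX58 and PARP14 are highest under TSZ+Nec-1s, PARP9 is lowest under TSZ, OAS3 is highest under TNFα and TSZ+Nec-1s, whose libraries overlap, and ISG20, OASL and GBP1 are highest under TSZ.

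The IFIT genes lie side by side on chromosome 10 and encode tetratricopeptide proteins that bind foreign RNA and restrain its translation. Against DMSO, IFIT2, IFIT3 and IFIT5 were higher under TSZ+Nec-1s, and of these IFIT2 alone was higher under TSZ. IFIT2 (chromosome 10, 89283694 to 89309271, plus strand) was at 31.5, 43.1 and 28.9 under DMSO, 34.6, 25 and 45.0 under TNFα, 72.1, 68.8 and 57.1 under TSZ and 68.0, 66.0 and 67.4 under TSZ+Nec-1s. The TSZ and TSZ+Nec-1s libraries overlapped each other and stood above all DMSO and TNFα libraries. Its log2 fold change over DMSO was 0.95 (SE 0.23, adjusted p = 0.004) with TSZ and 0.97 (SE 0.22, adjusted p = 0.011) with TSZ+Nec-1s; the first call was lost under scaling by estimated total reads (adjusted p = 0.063), the second without DMSO a (adjusted p = 0.062). Over TNFα, IFIT2 was higher under TSZ by a log2 fold change of 0.95 (SE 0.23, adjusted p = 0.0043). IFIT3 (chromosome 10, 89327307 to 89377473, plus strand) was at 77.4, 75.7 and 53.4 under DMSO, 103, 98.2 and 103 under TNFα, 96.5, 88.0 and 75.0 under TSZ and 152, 142 and 189 under TSZ+Nec-1s. Its TSZ+Nec-1s libraries stood apart above all others. IFIT3 had a log2 fold change of 1.21 (SE 0.18, adjusted p = 0.00051) for TSZ+Nec-1s over DMSO and -0.88 (SE 0.17, adjusted p = 0.0014) for TSZ over TSZ+Nec-1s. Exons of IFIT2 and IFIT3 overlap LIPA on the other strand in the annotation, and the reads were counted without strand, so their reads and those of LIPA there cannot be told apart. IFIT5 (chromosome 10, 89414568 to 89421605, plus strand) was at 77.4, 91.4 and 49.2 under DMSO, 119.6, 78.9 and 72.1 under TNFα, 63.2, 40.6 and 44 under TSZ and 134, 135 and 138 under TSZ+Nec-1s. TSZ+Nec-1s libraries were the highest and almost alike, and the TSZ libraries lay below all TNFα libraries and overlapped DMSO. IFIT5 had a log2 fold change of 0.93 (SE 0.23, adjusted p = 0.019) for TSZ+Nec-1s over DMSO, -0.85 (SE 0.28, adjusted p = 0.023) for TSZ over TNFα and -1.47 (SE 0.26, adjusted p = 0.00069) for TSZ over TSZ+Nec-1s. The first of these was lost without DMSO a or c or any single TSZ+Nec-1s library (adjusted p = 0.054 to 0.074) and the second without TNFα a or TSZ b or c (adjusted p = 0.071 to 0.089). IFIT1, on average at 34.0 ± 18 under DMSO, 29.6 ± 14.9 under TNFα, 40.7 ± 8.65 under TSZ and 41.1 ± 8.74 under TSZ+Nec-1s (SD, n = 3), was called in no comparison, and its DMSO b library stood at 54.7 against 26.1 and 21.4 in the others.

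The oligoadenylate synthetases OAS1, OAS2 and OAS3 sense double-stranded RNA and make the messenger that activates RNase L, while OASL binds RIG-I and has no synthetase activity. They followed different patterns: OAS1 and OASL were highest under TSZ, OAS3 under TNFα and TSZ+Nec-1s. OAS1 (chromosome 12, 112905856 to 112933219, plus strand) was at 113, 94.6 and 127 under DMSO, 117, 108 and 119 under TNFα, 207, 198 and 217 under TSZ and 128, 138 and 139 under TSZ+Nec-1s. Its TSZ libraries stood above all others, and the other groups overlapped or lay close together. OAS1 had a log2 fold change of 0.90 (SE 0.13, adjusted p = 0.00011) for TSZ over DMSO, 0.85 (SE 0.13, adjusted p = 0.00019) over TNFα and 0.62 (SE 0.13, adjusted p = 0.0018) over TSZ+Nec-1s, of which the last was lost under scaling by estimated total reads (adjusted p = 0.062). OASL (chromosome 12, 121017763 to 121039246, minus strand) was at 47.7, 54.7 and 81.2 under DMSO, 83.2, 120.3 and 117 under TNFα, 569, 716 and 668 under TSZ and 182, 189 and 189 under TSZ+Nec-1s. The groups did not overlap, and TSZ lay 10.9-fold above DMSO in the fit. OASL had a log2 fold change of 3.44 (SE 0.20, adjusted p = 1.7e-08) for TSZ over DMSO, 1.65 (SE 0.21, adjusted p = 0.00016) for TSZ+Nec-1s over DMSO and 1.79 (SE 0.15, adjusted p = 1.4e-06) for TSZ over TSZ+Nec-1s; TNFα over DMSO gave 0.83 (SE 0.22, adjusted p = 0.061). OAS3 (chromosome 12, 112938051 to 112976460, plus strand) was at 779, 797 and 813 under DMSO, 1754, 1699.5 and 2034 under TNFα, 1114, 1375 and 1328 under TSZ and 1759, 1816 and 1853 under TSZ+Nec-1s. TNFα and TSZ+Nec-1s libraries shared a range, TSZ libraries lay below both, and DMSO libraries below all. OAS3 had a log2 fold change over DMSO of 1.19 (SE 0.10, adjusted p = 1e-05) with TNFα, 1.18 (SE 0.10, adjusted p = 5.5e-06) with TSZ+Nec-1s and 0.67 (SE 0.11, adjusted p = 0.00017) with TSZ. TSZ over TNFα gave -0.53 (SE 0.10, adjusted p = 0.00096) and TSZ over TSZ+Nec-1s -0.51 (SE 0.10, adjusted p = 0.0013). OAS2 (chromosome 12, 112978395 to 113011723, plus strand), a member under 10 in DMSO and TSZ, was at 9.90, 6.31 and 4.28 under DMSO, 26.2, 13.5 and 13.0 under TNFα, 6.66, 4.51 and 7.14 under TSZ and 12.7, 16.5 and 26.2 under TSZ+Nec-1s. TNFα and TSZ+Nec-1s libraries stood above all DMSO and TSZ libraries, at few reads. OAS2 was lower under TSZ than under TNFα, -1.39 (SE 0.45, adjusted p = 0.023), and than under TSZ+Nec-1s, -1.43 (SE 0.44, adjusted p = 0.02), as log2 fold changes. These calls were lost without TNFα a or TSZ b (adjusted p = 0.083 to 0.086) and without TSZ b or TSZ+Nec-1s c (adjusted p = 0.064 to 0.078). Over DMSO, OAS2 had 1.32 (SE 0.43, adjusted p = 0.06) with TSZ+Nec-1s, short of the threshold.

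Of the other antiviral effectors, ISG20 had the largest rise of all members under TSZ. ISG20 (chromosome 15, 88635670 to 88656483, plus strand), an exonuclease that degrades single-stranded RNA, was at 27.0, 30.5 and 48.1 under DMSO, 53.3, 55.8 and 76.1 under TNFα, 789, 816 and 909 under TSZ and 79.9, 102 and 112 under TSZ+Nec-1s. All TSZ libraries stood far above every other library. Its log2 fold change was 4.61 (SE 0.22, adjusted p = 2.9e-09) for TSZ over DMSO, 3.77 (SE 0.19, adjusted p = 5.6e-09) over TNFα and 3.12 (SE 0.16, adjusted p = 1.2e-08) over TSZ+Nec-1s, and 1.49 (SE 0.25, adjusted p = 0.0012) for TSZ+Nec-1s over DMSO. ADAR (chromosome 1, 154581695 to 154628013, minus strand), which edits adenosine to inosine in double-stranded RNA, was at 3782, 3578 and 3675 under DMSO, 4448, 4347 and 4611 under TNFα, 3502, 4143 and 3937 under TSZ and 4620.5, 4711 and 4789.6 under TSZ+Nec-1s. TSZ+Nec-1s libraries stood above all DMSO and TSZ libraries and just above those of TNFα. ADAR had a log2 fold change of 0.36 (SE 0.08, adjusted p = 0.01) for TSZ+Nec-1s over DMSO, -0.29 (SE 0.08, adjusted p = 0.011) for TSZ over TSZ+Nec-1s and -0.21 (SE 0.08, adjusted p = 0.044) for TSZ over TNFα, and the last was lost without DMSO a, any single TNFα library, TSZ a or c or any single TSZ+Nec-1s library (adjusted p = 0.06 to 0.14). Between TSZ and DMSO ADAR was at 0.07 (SE 0.08, adjusted p = 0.52), which scaling by estimated total reads turned to -0.35 (adjusted p = 0.0011). MX1, a dynamin-like GTPase that traps viral nucleoproteins, averaged 13.7 ± 4.36 under DMSO, 28.3 ± 6.73 under TNFα, 35.6 ± 7.25 under TSZ and 29.6 ± 3.16 under TSZ+Nec-1s (SD, n = 3). It was higher than in DMSO with TSZ, 1.38 (SE 0.31, adjusted p = 0.0024), and with TSZ+Nec-1s, 1.11 (SE 0.30, adjusted p = 0.029). The second call was lost without DMSO a or b or any single TSZ+Nec-1s library (adjusted p = 0.054 to 0.1), and MX1 shares exon positions with TMPRSS2 on the other strand. EIF2AK2 encodes PKR, the kinase that stops translation on double-stranded RNA, and averaged 207 ± 96.8 under DMSO, 169 ± 26.6 under TNFα, 136 ± 32.1 under TSZ and 223 ± 17.4 under TSZ+Nec-1s (SD, n = 3). In DMSO b it stood at 317 against 165 and 138 in DMSO a and c, and its GC content is 38.5%. EIF2AK2 was lower under TSZ than under TSZ+Nec-1s, -0.72 (SE 0.27, adjusted p = 0.045), a call lost without DMSO a, TNFα b or c, TSZ b or c or any single TSZ+Nec-1s library (adjusted p = 0.054 to 0.14); it shares exon positions with GPATCH11.

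ISG15 is a ubiquitin-like modifier that interferon-induced enzymes attach to proteins, HERC6 a HECT ligase of the family that attaches it, and USP18 the protease that removes it and restrains the interferon receptor. ISG15 (chromosome 1, 1001138 to 1014540, plus strand) averaged 560.5 ± 183 under DMSO, 571 ± 56.5 under TNFα, 911 ± 104 under TSZ and 668 ± 37.5 under TSZ+Nec-1s (SD, n = 3). It was higher under TSZ than under DMSO, 0.75 (SE 0.19, adjusted p = 0.0051), and than under TNFα, 0.67 (SE 0.19, adjusted p = 0.01), and both calls were lost under scaling by estimated total reads (adjusted p = 0.12 and 0.13). The second was also lost under scaling by recovered reads (adjusted p = 0.051). DMSO b held 375 normalized reads of ISG15 against 565 and 741 in DMSO a and c, and the GC content of ISG15 is 64.2%. HERC6 averaged 29.7 ± 5.5 under DMSO, 49.4 ± 7.65 under TNFα, 46.0 ± 5.21 under TSZ and 67.7 ± 1.13 under TSZ+Nec-1s (SD, n = 3). It was higher than in DMSO with TSZ+Nec-1s, 1.18 (SE 0.20, adjusted p = 0.0015), and with TSZ, 0.62 (SE 0.22, adjusted p = 0.029), and lower under TSZ than under TSZ+Nec-1s, -0.55 (SE 0.18, adjusted p = 0.028). The call of TSZ over DMSO was lost without DMSO b or c or TSZ a or c (adjusted p = 0.06 to 0.084), under all 3 other scalings (adjusted p = 0.069 to 0.41) and with the 2 groups fitted alone (adjusted p = 0.087). That of TSZ over TSZ+Nec-1s was lost without TSZ b or c or any single TSZ+Nec-1s library (adjusted p = 0.057 to 0.1). USP18 averaged 25.8 ± 11.4 under DMSO, 22.9 ± 1.49 under TNFα, 12.6 ± 1.88 under TSZ and 20.9 ± 2.48 under TSZ+Nec-1s (SD, n = 3). It passed the threshold nowhere; TSZ over DMSO gave -0.90 (SE 0.37, adjusted p = 0.059).

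TRIM25 and TRIM21 are ubiquitin ligases, the first known for activating RIG-I and the second for binding antibody on incoming viruses. TRIM25 (chromosome 17, 56836387 to 56914080, minus strand) was at 1676, 1583 and 1667 under DMSO, 2050.0, 2015 and 2308 under TNFα, 3051, 3670.3 and 3667 under TSZ and 2221, 2331 and 2420.4 under TSZ+Nec-1s. Its TSZ libraries stood above all others, TNFα and TSZ+Nec-1s libraries overlapped, and DMSO libraries were the lowest. TRIM25 had a log2 fold change of 1.07 (SE 0.10, adjusted p = 1.2e-06) for TSZ over DMSO, 0.57 (SE 0.09, adjusted p = 0.00037) for TSZ over TSZ+Nec-1s, 0.70 (SE 0.09, adjusted p = 6.1e-05) for TSZ over TNFα and 0.50 (SE 0.10, adjusted p = 0.0038) for TSZ+Nec-1s over DMSO. Its annotation shares exon positions with C17orf67 and DGKE. TRIM21 averaged 246 ± 35.9 under DMSO, 263 ± 22.6 under TNFα, 318 ± 46.3 under TSZ and 366 ± 60.6 under TSZ+Nec-1s (SD, n = 3). It was higher under TSZ+Nec-1s than under DMSO, 0.57 (SE 0.16, adjusted p = 0.032), a call lost without DMSO c or TSZ+Nec-1s b or c (adjusted p = 0.074 to 0.14). The call was also lost under scaling by the upper quartile (adjusted p = 0.063) and with the 2 groups fitted alone (adjusted p = 0.092).

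PARP14 and PARP9 are ADP-ribosyltransferases of the macrodomain family, and DTX3L is the ubiquitin ligase that partners PARP9. The 3 genes lie near each other on chromosome 3, and PARP9 and DTX3L lie on opposite strands with overlapping exons, where reads counted without strand cannot be told apart. PARP14 (chromosome 3, 122680839 to 122730840, plus strand) was at 979.6, 1083 and 897 under DMSO, 1701, 1598 and 1670.4 under TNFα, 2026, 1595 and 1757 under TSZ and 2624, 2559 and 2749 under TSZ+Nec-1s. TSZ+Nec-1s libraries stood above all others, TNFα and TSZ libraries overlapped, and DMSO libraries were the lowest. PARP14 had a log2 fold change over DMSO of 1.43 (SE 0.10, adjusted p = 9.6e-07) with TSZ+Nec-1s, 0.86 (SE 0.10, adjusted p = 2e-05) with TSZ and 0.75 (SE 0.10, adjusted p = 0.00081) with TNFα. TSZ+Nec-1s over TNFα gave 0.67 (SE 0.10, adjusted p = 0.004) and TSZ over TSZ+Nec-1s -0.57 (SE 0.10, adjusted p = 0.00062). PARP9 (chromosome 3, 122527924 to 122564577, minus strand) was at 307, 392 and 271 under DMSO, 375, 314 and 343 under TNFα, 192, 129 and 146 under TSZ and 389, 386 and 368 under TSZ+Nec-1s. All TSZ libraries lay below all others, which overlapped. PARP9 was the 1 member lower under TSZ than under DMSO, -1.05 (SE 0.17, adjusted p = 0.00024), and was also lower than under TNFα, -1.16 (SE 0.17, adjusted p = 0.00013), and with TSZ+Nec-1s, -1.31 (SE 0.17, adjusted p = 5.2e-05), and these calls held in each of the 21 alternatives run. DTX3L averaged 644 ± 136 under DMSO, 868 ± 138 under TNFα, 754 ± 59.1 under TSZ and 1086 ± 30.005 under TSZ+Nec-1s (SD, n = 3), was higher under TSZ+Nec-1s than under DMSO, 0.78 (SE 0.15, adjusted p = 0.0036), and lower under TSZ than under TSZ+Nec-1s, -0.53 (SE 0.15, adjusted p = 0.012), while TSZ over DMSO gave 0.25 (SE 0.15, adjusted p = 0.2).

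IFITM2 and IFITM3 block the fusion of viruses with membranes, and BST2, or tetherin, holds budding virions at the cell surface. BST2 was higher under TSZ than under TSZ+Nec-1s, and IFITM3 was higher under TSZ than under DMSO. BST2 (chromosome 19, 17402939 to 17405630, minus strand) was at 817, 639 and 860.4 under DMSO, 697, 793 and 707 under TNFα, 774, 932 and 1033 under TSZ and 624, 630.3 and 595 under TSZ+Nec-1s. The TSZ+Nec-1s libraries were the lowest of all, and the other 3 groups overlapped. BST2 had a log2 fold change of 0.56 (SE 0.13, adjusted p = 0.0048) for TSZ over TSZ+Nec-1s, lost under scaling by estimated total reads (adjusted p = 0.13), and -0.31 (SE 0.13, adjusted p = 0.15) for TSZ+Nec-1s over DMSO. IFITM3 averaged 133 ± 37.9 under DMSO, 183 ± 22.3 under TNFα, 188 ± 11.8 under TSZ and 153 ± 11.5 under TSZ+Nec-1s (SD, n = 3). It was higher under TSZ than under DMSO, 0.53 (SE 0.19, adjusted p = 0.036), a call lost without DMSO b, TSZ b or c or TSZ+Nec-1s b (adjusted p = 0.05 to 0.13) and under all 3 other scalings (adjusted p = 0.11 to 0.61). IFITM2 averaged 259.9 ± 80.8 under DMSO, 280.1 ± 23.2 under TNFα, 291 ± 49.3 under TSZ and 241 ± 16.7 under TSZ+Nec-1s (SD, n = 3). It was called nowhere. The IFITM genes are near copies, and reads that fit more than 1 of them could be lost in counting.

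Guanylate-binding proteins are interferon-induced GTPases that coat intracellular bacteria and vacuoles, and GBP1 to GBP3 lie side by side on chromosome 1. All 3 were higher than in DMSO with TSZ and with TSZ+Nec-1s. GBP1 (chromosome 1, 89051882 to 89065360, minus strand) was at 13.5, 13.7 and 10.7 under DMSO, 71.0, 33.7 and 55 under TNFα, 149.8, 131 and 152 under TSZ and 98.8, 90.3 and 108 under TSZ+Nec-1s. The groups did not overlap, from DMSO over TNFα and TSZ+Nec-1s to TSZ. GBP1 had a log2 fold change over DMSO of 3.47 (SE 0.31, adjusted p = 1.2e-06) with TSZ, 2.92 (SE 0.31, adjusted p = 3.6e-05) with TSZ+Nec-1s and 1.98 (SE 0.33, adjusted p = 0.0031) with TNFα, and its fold with TNFα, 3.93-fold, was the largest of the members in that comparison. TSZ over TSZ+Nec-1s gave 0.55 (SE 0.19, adjusted p = 0.034), a call lost without TSZ a or c or any single TSZ+Nec-1s library (adjusted p = 0.054 to 0.11). It was also lost under all 3 other scalings (adjusted p = 0.051 to 0.37) and without weights (adjusted p = 0.08). GBP2 (chromosome 1, 89106132 to 89150456, minus strand) was at 88.2, 71.5 and 88.7 under DMSO, 107, 104 and 106 under TNFα, 326, 299 and 319 under TSZ and 168, 187 and 155 under TSZ+Nec-1s. Again the groups did not overlap, and TSZ was well above the rest. GBP2 had a log2 fold change of 1.92 (SE 0.13, adjusted p = 1.1e-07) for TSZ over DMSO, 0.89 (SE 0.12, adjusted p = 5.9e-05) for TSZ over TSZ+Nec-1s, 1.03 (SE 0.14, adjusted p = 0.00024) for TSZ+Nec-1s over DMSO and 0.68 (SE 0.13, adjusted p = 0.025) for TSZ+Nec-1s over TNFα, of which the last was lost without any single TNFα library or any single TSZ+Nec-1s library (adjusted p = 0.054 to 0.14). That call was also lost with the GC trend removed (adjusted p = 0.11). GBP3 (chromosome 1, 89006679 to 89022894, minus strand) was at 140.5, 235 and 136 under DMSO, 325, 271 and 245 under TNFα, 577, 397 and 459 under TSZ and 523, 483 and 417 under TSZ+Nec-1s. TSZ and TSZ+Nec-1s libraries overlapped, and both stood above all others. GBP3 had a log2 fold change over DMSO of 1.52 (SE 0.21, adjusted p = 6e-05) with TSZ and 1.52 (SE 0.21, adjusted p = 0.00028) with TSZ+Nec-1s. The GBP genes are similar in sequence, and reads that fit more than 1 of them could be lost in counting.

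The IFI genes and NMI include small mitochondrial and membrane proteins of partly open function, and NMI and IFI35 encode partner proteins that bind each other. IFI6, IFI27 and IFI35 were higher under TSZ than under DMSO, and IFI35, IFI44 and NMI with TSZ+Nec-1s. IFI35 averaged 93.6 ± 22.3 under DMSO, 142 ± 20.1 under TNFα, 159.8 ± 15.6 under TSZ and 156 ± 8.25 under TSZ+Nec-1s (SD, n = 3), a log2 fold change over DMSO of 0.79 (SE 0.18, adjusted p = 0.0033) with TSZ and 0.75 (SE 0.18, adjusted p = 0.015) with TSZ+Nec-1s. NMI averaged 176 ± 64.1 under DMSO, 184 ± 29.9 under TNFα, 227 ± 28.8 under TSZ and 325 ± 16.8 under TSZ+Nec-1s (SD, n = 3). NMI had a log2 fold change of 0.94 (SE 0.20, adjusted p = 0.007) for TSZ+Nec-1s over DMSO and -0.52 (SE 0.19, adjusted p = 0.047) for TSZ over TSZ+Nec-1s. IFI44 averaged 25.7 ± 6.37 under DMSO, 23.5 ± 1.82 under TNFα, 26.9 ± 3.73 under TSZ and 42.1 ± 2.05 under TSZ+Nec-1s (SD, n = 3). IFI44 had a log2 fold change of 0.75 (SE 0.22, adjusted p = 0.039) for TSZ+Nec-1s over DMSO and -0.64 (SE 0.22, adjusted p = 0.034) for TSZ over TSZ+Nec-1s. The group means of these genes thus put TSZ+Nec-1s at or near the top. IFI27, in turn, averaged 35.8 ± 10.4 under DMSO, 49.1 ± 10.4 under TNFα, 68.7 ± 14.7 under TSZ and 43.7 ± 6.29 under TSZ+Nec-1s (SD, n = 3). IFI27 had a log2 fold change of 0.93 (SE 0.26, adjusted p = 0.01) for TSZ over DMSO, and IFI6 averaged 13.7 ± 8.34 under DMSO, 18 ± 4.48 under TNFα, 30.5 ± 2.79 under TSZ and 21.4 ± 4.03 under TSZ+Nec-1s, 1.35 (SE 0.43, adjusted p = 0.019). In DMSO b, IFI6 stood at 4.20 against 19.8 and 17.1 in DMSO a and c, and its call was lost without DMSO b (adjusted p = 0.065), under scaling by estimated total reads (adjusted p = 0.072) and with the 2 groups fitted alone (adjusted p = 0.063). For TSZ+Nec-1s over DMSO, IFI44 lost its call without DMSO a or c, any single TNFα library, TSZ b or any single TSZ+Nec-1s library (adjusted p = 0.051 to 0.22), NMI without DMSO a (adjusted p = 0.052) and IFI35 without TSZ+Nec-1s a or c (adjusted p = 0.054 to 0.056). With the other settings counted in, IFI44 lost this call in 17 of the 21 alternatives run. For TSZ over TSZ+Nec-1s, IFI44 lost its call without TSZ b or c or any single TSZ+Nec-1s library (adjusted p = 0.058 to 0.11) and NMI without DMSO a, TNFα a or b, TSZ b or c or any single TSZ+Nec-1s library (adjusted p = 0.051 to 0.14). IFI27 and IFI35 lost that of TSZ over DMSO under scaling by estimated total reads (adjusted p = 0.1 and 0.079).

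Among the remaining members, SP100, a scaffold of nuclear bodies that silences viral DNA, rose in all 3 treated groups. SP100 (chromosome 2, 230415942 to 230545606, plus strand) was at 298, 337 and 322 under DMSO, 429, 445 and 442 under TNFα, 545, 561 and 561 under TSZ and 475, 467 and 436 under TSZ+Nec-1s. The TSZ libraries were highest, TNFα and TSZ+Nec-1s libraries overlapped, and DMSO libraries were lowest. SP100 had a log2 fold change over DMSO of 0.80 (SE 0.09, adjusted p = 1.4e-05) with TSZ, 0.53 (SE 0.09, adjusted p = 0.0023) with TSZ+Nec-1s and 0.46 (SE 0.10, adjusted p = 0.013) with TNFα. Its excess with TSZ over TNFα, 0.34 (SE 0.09, adjusted p = 0.0084), and over TSZ+Nec-1s, 0.27 (SE 0.09, adjusted p = 0.027), was at 0 and -0.06 under scaling by estimated total reads. Both calls were also lost under scaling by recovered reads (adjusted p = 0.33 and 0.25) and by the upper quartile (adjusted p = 0.059 and 0.085). The first was lost with the GC trend removed (adjusted p = 0.051). The second was lost without TSZ b or c or any single TSZ+Nec-1s library (adjusted p = 0.054 to 0.1). SAMD9 (chromosome 7, 93099513 to 93118023, minus strand), which restrains poxviruses and cell growth, was at 141, 397 and 119.7 under DMSO, 282, 143 and 164 under TNFα, 769.9, 383 and 361 under TSZ and 657, 589 and 607 under TSZ+Nec-1s. DMSO b and TSZ a stood far above the other libraries of their groups. DMSO b lay within the range of TSZ and TSZ a above every TSZ+Nec-1s library, and the GC content of SAMD9 is 36.0%. SAMD9 had a log2 fold change of 1.72 (SE 0.38, adjusted p = 0.01) for TSZ+Nec-1s over DMSO, 1.34 (SE 0.40, adjusted p = 0.013) for TSZ over DMSO, 1.33 (SE 0.40, adjusted p = 0.015) for TSZ over TNFα and 1.71 (SE 0.38, adjusted p = 0.05) for TSZ+Nec-1s over TNFα, the last just under the threshold before rounding. Scaling by estimated total reads ended those of TSZ over DMSO and over TNFα (adjusted p = 0.067 and 0.06). In the order above these calls were lost without DMSO a (adjusted p = 0.066), without DMSO a or c or TSZ a (adjusted p = 0.052 to 0.067), without TNFα b or c or TSZ a (adjusted p = 0.056 to 0.065) and without DMSO a, any single TNFα library, TSZ b or c or any single TSZ+Nec-1s library (adjusted p = 0.068 to 0.23). The last was also lost under scaling by estimated total reads or the upper quartile, without a filter and without weights (adjusted p = 0.05 to 0.079, the lowest just over the threshold before rounding). LGALS3BP, a secreted glycoprotein, averaged 10532 ± 2132 under DMSO, 9775 ± 681 under TNFα, 9019 ± 1129 under TSZ and 8731 ± 327 under TSZ+Nec-1s (SD, n = 3). LAP3, a leucine aminopeptidase, averaged 1162 ± 58.0 under DMSO, 1223 ± 80.7 under TNFα, 1168 ± 66.2 under TSZ and 1186 ± 58.1 under TSZ+Nec-1s, and SP110, a nuclear body protein whose exons overlap SP140, 87.3 ± 18.5 under DMSO, 96.8 ± 11.6 under TNFα, 81.9 ± 18.4 under TSZ and 99.0 ± 19.0 under TSZ+Nec-1s. None of these 3 was called in a comparison.

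**Figure D5:**
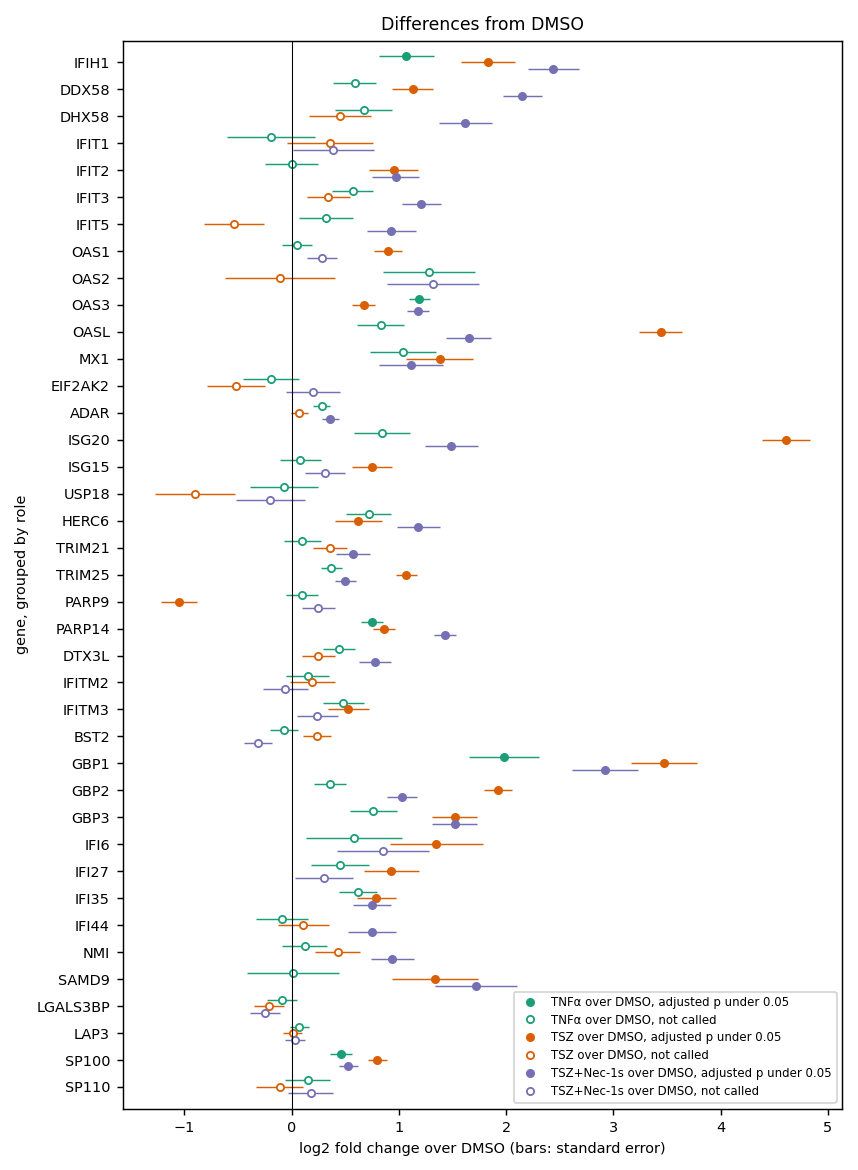
Log2 fold change over DMSO of the 39 tested members with TNFα (green), TSZ (orange) and TSZ+Nec-1s (purple) from limma, with standard errors as bars and filled points at an adjusted p under 0.05. ISG20, OASL and GBP1 lie farthest right with TSZ at 4.61, 3.44 and 3.47, and PARP9 lies at -1.05. Under scaling by estimated total reads, 13 members were higher and 7 lower under TSZ, beside 14.0% and 48.6% of all tested genes.

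The 10 members under 10 in every group were MX2, RSAD2, CMPK2, HERC5, TRIM22, IFITM1, IFI44L, SAMD9L, XAF1 and RTP4, with 0 to 34 reads summed over the 3 libraries of a group. Among them are RSAD2 (viperin) and MX2, which respond strongly to interferon in many cells. They were left out of the main test. Looser filters, which tested 47 or all 49 members, called SAMD9L and XAF1 among them, named here after their values were seen. Both were called higher under TSZ+Nec-1s than under DMSO, as were 4.69% of all genes tested without a filter. Summed per group, SAMD9L had 1 read under DMSO, 5 under TNFα, 10 under TSZ and 34 under TSZ+Nec-1s. XAF1 had 0, 4, 1 and 18 in the same order. SAMD9L was also called higher under TSZ than under DMSO (18.5% of genes without a filter), and XAF1 lower under TSZ than under TSZ+Nec-1s (12.6%). Because these 2 genes were picked for their calls, and at so few reads, the calls lend no support.

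The genes upstream were taken from a list of 43 interferon pathway genes, of which 31 were tested. Of these, 9 were higher under TNFα than under DMSO (29.0%, against 3.09% of all tested genes), 19 with TSZ (61.3%, against 25.8%) and 15 with TSZ+Nec-1s (48.4%, against 7.1%). MAVS and PTPN6 were lower under TSZ (6.45%, against 24.2%), and by limma 0 were lower under TNFα or TSZ+Nec-1s (1 each at an unadjusted p under 0.05). Between TSZ and TSZ+Nec-1s, 9 were higher (29.0%, against 22.5%) and 5 lower under TSZ (16.1%, against 19.8%). Between TSZ and TNFα, 15 were higher (48.4%, against 22.6%) and 5 lower (16.1%, against 21.7%). Between TSZ+Nec-1s and TNFα, 4 were higher (12.9%, against 1.09%) and by limma 0 lower (1 at an unadjusted p under 0.05). The genes counted as higher under TSZ than under each other group include SOCS1, which passed the filter through TSZ alone. Interferon genes themselves gave few reads. IFNA1, IFNA2, IFNA5, IFNK, IFNW1 and IFNG had 0 reads in all 12 libraries, which allows up to 3 counts among 127125769 estimated reads, counting error only. Summed over the 3 libraries of a group, IFNB1 had 0 reads under DMSO, 0 under TNFα, 1 under TSZ and 2 under TSZ+Nec-1s. IFNL1, a type III interferon, had 0, 1, 13 and 10 reads in the same order, IFNL2 had 0, 0, 1 and 2 and IFNL3 had 0, 0, 1 and 0. IFNE, the 1 interferon gene that was tested, averaged 16.0 ± 9.84 under DMSO, 17.0 ± 2.59 under TNFα, 29.6 ± 3.09 under TSZ and 20.4 ± 4.34 under TSZ+Nec-1s (SD, n = 3). It was higher under TSZ than under DMSO, 1.04 (SE 0.35, adjusted p = 0.023), a call lost without DMSO a or c or TSZ a or b (adjusted p = 0.054 to 0.12), under scaling by recovered reads or estimated total reads (adjusted p = 0.061 and 0.13) and with the 2 groups fitted alone (adjusted p = 0.073).

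All 7 tested receptor chains and kinases were higher than in DMSO with TSZ (against 25.8% of all tested genes) and with TSZ+Nec-1s (against 7.1%), and 4 with TNFα (against 3.09%). Under scaling by estimated total reads 5 were higher under TSZ (against 14.0%). IFNAR2, the signaling chain of the type I receptor, averaged 60.5 ± 15 under DMSO, 167 ± 7.52 under TNFα, 349 ± 10.1 under TSZ and 307 ± 12.1 under TSZ+Nec-1s (SD, n = 3). IFNGR2, a chain of the interferon-γ receptor, averaged 310.1 ± 23.4 under DMSO, 671 ± 42.7 under TNFα, 2654 ± 168 under TSZ and 1232 ± 60.6 under TSZ+Nec-1s (SD, n = 3), and its log2 fold change was 1.11 (SE 0.09, adjusted p = 6.7e-07) for TSZ over TSZ+Nec-1s. IFNLR1, the private chain of the type III receptor, stayed under 10 in every group. Of the transcription factors, IRF1 averaged 482 ± 61.2 under DMSO, 876 ± 46.2 under TNFα, 2293 ± 258 under TSZ and 1354 ± 65.7 under TSZ+Nec-1s (SD, n = 3). It was higher than in DMSO in all 3 treated groups, with 0.75 (SE 0.11, adjusted p = 0.00012) for TSZ over TSZ+Nec-1s. IRF7, the amplifier of interferon genes, averaged 438 ± 99.96 under DMSO, 535 ± 55.3 under TNFα, 2097 ± 233 under TSZ and 611 ± 47.3 under TSZ+Nec-1s (SD, n = 3). IRF7 had a log2 fold change of 2.28 (SE 0.15, adjusted p = 7.3e-08) for TSZ over DMSO. IRF9 averaged 67.3 ± 16.7 under DMSO, 74.0 ± 10.9 under TNFα, 114 ± 2.3 under TSZ and 91.7 ± 4.14 under TSZ+Nec-1s (SD, n = 3). IRF9 had a log2 fold change of 0.79 (SE 0.18, adjusted p = 0.003) for TSZ over DMSO (adjusted p = 0.083 under scaling by estimated total reads), while STAT2 passed no threshold against DMSO.

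In the pathway that leads from sensors to IRF3, TICAM1, the adaptor of TLR3, averaged 119.9 ± 16.3 under DMSO, 287 ± 40.4 under TNFα, 778 ± 89.2 under TSZ and 258 ± 24.8 under TSZ+Nec-1s (SD, n = 3). TICAM1 had a log2 fold change of 2.69 (SE 0.16, adjusted p = 2e-08) for TSZ over DMSO. IKBKE, a kinase of IRF3, averaged 133 ± 30.8 under DMSO, 252 ± 28.8 under TNFα, 143 ± 27.2 under TSZ and 352 ± 46.6 under TSZ+Nec-1s (SD, n = 3). It was lower under TSZ than under TSZ+Nec-1s, -1.30 (SE 0.19, adjusted p = 0.00013). TRAF3 averaged 729.6 ± 91.3 under DMSO, 1207 ± 42.3 under TNFα, 831 ± 57.5 under TSZ and 1158 ± 27.2 under TSZ+Nec-1s (SD, n = 3), also lower under TSZ than under TSZ+Nec-1s, -0.48 (SE 0.10, adjusted p = 0.0022). MAVS, through which RIG-I and MDA5 signal, averaged 1190.4 ± 66.1 under DMSO, 1188 ± 50.9 under TNFα, 901 ± 139 under TSZ and 987 ± 51.4 under TSZ+Nec-1s (SD, n = 3). MAVS had a log2 fold change of -0.41 (SE 0.11, adjusted p = 0.0085) for TSZ over DMSO. The inhibitors of JAK signaling SOCS1 and SOCS3 were the pathway genes with the largest rises with TSZ. SOCS1 passed the filter through its TSZ libraries alone, with a mean of 16.0 over all 12 libraries. Its rise with TSZ was thus fixed by the filter and lends no support. SOCS1 held 51.0, 76.7 and 54.7 normalized reads in the TSZ libraries and at most 2.01 in any other library, and SOCS3 averaged 3.37 ± 0.765 under DMSO, 11.2 ± 5.46 under TNFα, 212 ± 17.8 under TSZ and 27.7 ± 8.85 under TSZ+Nec-1s (SD, n = 3). SOCS3 had a log2 fold change of 5.80 (SE 0.45, adjusted p = 2.9e-07) for TSZ over DMSO and 2.95 (SE 0.26, adjusted p = 1.5e-06) for TSZ over TSZ+Nec-1s.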

How the data were processed

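Total RNA of HT-29 cells was sequenced after selection of polyadenylated RNA. The authors aligned reads with STAR 2.3.0e to hg38, counted them per gene with HTSeq 0.5.4e without strand and scaled them with DESeq (version not given in the sources used here). They deposited 6 comparison tables of 26485 genes, whose signal values are the mean over 3 libraries of counts divided by size factors; their fold changes and p-values were not used. Each mean was solved for whole reads of 3 libraries, checked on simulated reads (15420 of 15430 genes recovered in DMSO, 0 wrongly). Libraries were lettered a to c by their size factor, so that letters are not replicate numbers. Unsolved genes, 8 to 56 per group, held 4.06 to 16.5% of the signal. Recovered reads were tested with limma 3.58.1 (voom, R 4.3.3) over all 12 libraries, at a mean of at least 10 normalized reads. The size factors were recovered from the deposited means together with the reads. Benjamini-Hochberg adjustment was over all 11697 genes tested. Every member at a mean of at least 10 in a group was described; members among the 6 largest rises or falls called in a comparison were given per library, and pathway genes by group mean. Values of 1 pathway gene are not reported here. Members and lists were chosen with earlier results of these data known. Gene symbols were matched to the annotation for 23161 genes directly and for 1373 by another symbol. The alternatives comprised 12 fits without 1 library and 9 other settings, of which scaling by estimated total reads and removal of the GC trend within groups were added after the data were examined. Intervals and limits cover counting error only.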

Additional observations from a re-analysis of the deposited data

How the results depend on the processing

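Of the calls of members, 3 of 5 for TNFα over DMSO, 14 of 22 for TSZ over DMSO, 16 of 24 for TSZ+Nec-1s over DMSO, 9 of 18 for TSZ over TNFα, 3 of 5 for TSZ+Nec-1s over TNFα and 13 of 23 for TSZ over TSZ+Nec-1s were made in each of the 21 alternatives run. The cause of the changes listed here was not tested. Members under 10 normalized reads rest on 0 to 34 reads per group.

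For TNFα over DMSO, members higher were 8 with scaling by recovered reads, 3 with the 2 groups fitted alone, 17 with the GC trend removed and 18 with the GC trend within groups removed, and 1 was lower with the GC trend removed. Of all tested genes, 3.99%, 1.74%, 6.64% and 10.98% were higher in the same order, and 6.45% were lower with the GC trend removed. Pathway genes higher were 16 with the GC trend within groups removed, and 1 was lower with the GC trend removed. For TSZ over DMSO, members higher were 13 with scaling by estimated total reads, beside 14.0% of all tested genes. Members lower were 5 with scaling by recovered reads, 2 with scaling by the upper quartile, 2 without weights, 5 with either GC correction and 7 with scaling by estimated total reads. Of all tested genes, 35.7% were lower with recovered reads, 30.02% with the upper quartile and 24.7% without weights. With the GC trend removed or removed within groups 37.9% and 32.7% were lower, and with estimated total reads 48.6%. Pathway genes higher were 12 with scaling by estimated total reads, and pathway genes lower were 5 with scaling by recovered reads, 4 with the upper quartile, 0 in the fit of the 2 groups by limma, 5 with either GC correction and 6 with estimated total reads. The median log2 fold change of the members was 0.41 with recovered reads, 0.51 with the upper quartile, 0.47 with the GC trend removed and 0.21 with estimated total reads.

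For TSZ+Nec-1s over DMSO, members lower were 1 with scaling by recovered or by estimated total reads and 2 with either GC correction. Of all tested genes, 9.99% and 10.8% were lower with these scalings, and 15.6% and 15.01% with the GC trend removed or removed within groups. Pathway genes higher were 23 with the GC trend within groups removed, and 1 was lower with either of these scalings and either GC correction. The median was 0.67 with the GC trend removed. For TSZ over TNFα, members higher were 7 with estimated total reads, and members lower were 9 with recovered reads, 8 with either GC correction and 11 with estimated total reads. Of all tested genes, 12.6% were higher with estimated total reads and 15.1% with recovered reads. With recovered reads 35.3% were lower, with estimated total reads 42.5%. With the GC trend removed or removed within groups 34.0% and 29.6% were lower. Pathway genes higher were 9 with recovered reads and 8 with estimated total reads, and pathway genes lower were 8 with estimated total reads. The median was 0.03 with recovered reads, 0.16 with the upper quartile, 0.13 with the GC trend removed and -0.08 with estimated total reads.

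For TSZ+Nec-1s over TNFα, members higher were 18 with the 2 groups fitted alone, 12 with the GC trend removed and 19 with the GC trend within groups removed, and members lower were 1 with the 2 groups alone and 2 with the GC trend within groups removed. Of all tested genes, 17.0%, 3.28% and 16.7% were higher in the same order. With the 2 groups alone 9.87% were lower, and with the GC trend within groups removed 12.4%. Pathway genes higher were 14, 11 and 13 in the same 3 settings, and 1 was lower with the 2 groups alone and with the GC trend within groups removed. For TSZ over TSZ+Nec-1s, members higher were 4 with estimated total reads, beside 11.6% of all tested genes. Pathway genes lower were 9 with recovered reads, 8 with the 2 groups alone, 12 with the GC trend removed, 9 with the GC trend within groups removed and 16 with estimated total reads. Of all tested genes, 28.9%, 23.4%, 31.8%, 30.5% and 42.2% were lower in the same order. The median was -0.17 with recovered reads, -0.17 with the GC trend removed and -0.36 with estimated total reads.

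Single genes turned their sign as well. For TSZ over DMSO, ADAR was at -0.35 with estimated total reads, and LAP3 at -0.20 with recovered reads and -0.41 with estimated total reads. With estimated total reads SP100 was at 0 for TSZ over TNFα and at -0.06 for TSZ over TSZ+Nec-1s, and LGALS3BP was at -0.20 for TSZ over TSZ+Nec-1s with the GC trend removed.

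Without 1 library, the members higher were 3 to 8 for TNFα over DMSO, 19 to 21 for TSZ over DMSO, 18 to 25 for TSZ+Nec-1s over DMSO, 11 to 15 for TSZ over TNFα, 3 to 13 for TSZ+Nec-1s over TNFα and 6 to 10 for TSZ over TSZ+Nec-1s. The first of these was 3 without DMSO a, TNFα b or TNFα c and 8 without TSZ a. Of all 11697 genes tested, 239 to 425, 2680 to 3343, 541 to 2216, 2208 to 3244, 47 to 665 and 2110 to 3101 were higher in the same order. Members lower were 1 to 3 for TSZ over DMSO, 0 to 2 for TSZ+Nec-1s over DMSO, 2 to 6 for TSZ over TNFα (2 without TNFα a) and 9 to 16 for TSZ over TSZ+Nec-1s (9 without TSZ b). Of all tested genes, 2392 to 3132, 305 to 1693, 2100 to 3005 and 1754 to 2962 were lower in these comparisons. Pathway genes higher were 7 to 10, 17 to 20, 13 to 19, 13 to 18, 2 to 10 and 9 to 10 in the order above. Pathway genes lower were 1 to 4 for TSZ over DMSO, 0 to 1 for TSZ+Nec-1s over DMSO, 4 to 6 for TSZ over TNFα and 3 to 9 for TSZ over TSZ+Nec-1s. The medians were 0.34 to 0.41, 0.58 to 0.72, 0.75 to 0.89, 0.17 to 0.28, 0.28 to 0.42 and -0.19 to -0.02.

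No paired analysis was possible because the libraries were recovered from group means and carry no replicate number.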
